A study of Mus musculus with 12 samples.

Results

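Oxidative phosphorylation is carried out by 5 multisubunit complexes of the inner mitochondrial membrane, and the transcripts of their subunits were compared between lungs of Iars1 mutant and wild-type mice. The members were the protein-coding genes whose GENCODE symbols name a subunit: the mitochondrial mt-Nd, mt-Cytb, mt-Co and mt-Atp genes, and the nuclear Nduf, Sdh, Uqcr, Cox and Atp5 genes. Of 59136 entries in the count table, 98 matched by symbol and 97 of these had at least 10 counts over all libraries; a second entry named Atp5o was at 0. The 97 genes comprised 13 encoded by mitochondrial DNA and 84 encoded in the nucleus. Of these, 95 had enough reads to be tested, and the 2 that did not were Cox7b2, with 19 reads in all, and Cox8c, with 13.

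The series holds RNA-seq of whole lung at day 28 from 6 Mut and 6 WT libraries. The Mut animals carried the alleles IARS1-TYR148CYS/ARG444* according to the design text, whereas their genotype label reads IARS1 knockdown; no other allele or agent is named for either group. Iars1 encodes the cytosolic isoleucyl-tRNA synthetase, which charges isoleucine onto its tRNA. The labels also call the lung material primary cells, and they do not state that each library came from a separate mouse, so every p-value rests on the spread among these 12 libraries, which may be technical. Levels are given as CPM, reads per 1000000 after scaling by the trimmed mean of M values, and fold changes as log2 of Mut over WT.

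Complex I (NADH dehydrogenase), complex III (cytochrome bc1) and complex IV (cytochrome c oxidase) pump protons as they pass electrons towards oxygen, complex II (succinate dehydrogenase) feeds electrons from the tricarboxylic acid cycle, and complex V (ATP synthase) uses the proton gradient to make ATP. Mitochondrial DNA encodes core subunits of complexes I, III, IV and V, is copied into long transcripts from both strands and is read by a polymerase of its own; every subunit of complex II is nuclear. Several complex IV subunits exist as a general form and a form found mainly in heart and skeletal muscle, lung or testis, and heart muscle reaches the lung along the pulmonary veins of the mouse.

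Library totals ran between 18870399 and 24014890 counts in Mut and between 17118716 and 20119498 counts in WT, and 19004 genes were tested with edgeR's quasi-likelihood test. Iars itself was at 55.0 ± 10.7 CPM in Mut and 44.9 ± 8.57 CPM in WT (SD, n = 6 each; log2 fold change 0.29, adjusted p = 0.189); a count per gene does not separate the alleles, so it does not check the labels. The summed markers of alveolar type 2 cells were between 14496 and 29040 CPM in Mut and between 16385 and 24874 CPM in WT, so the tissue carried the markers of lung. All 4 B cell, all 4 T cell and all 5 red blood cell markers were called lower in Mut (adjusted p under 0.05), against 5.31% of all tested genes. Mut replicate 7 stood apart, with the lowest endothelial marker sum (1432 CPM, against 2339 to 3002 CPM in the other 11 libraries) and the lowest pericyte and smooth muscle marker sum (412 CPM).

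Some mitochondrial genes have copies in the nuclear genome that are nearly the same in sequence, and reads from the pair can be hard to place. Of the 13 mitochondrial mRNAs, 6 (mt-Nd3, mt-Nd4, mt-Nd4l, mt-Co2, mt-Co3 and mt-Atp6) matched an annotated nuclear pseudogene at 99% identity or more over at least 50% of their length. A stretch of mt-Co2, bases 445 to 504 of the mRNA, is shown beside the same stretch of 2 nuclear copies, from GENCODE M21 transcripts, because it shows which pair a read cannot tell apart. Capitals mark the bases at which Gm13341 on chromosome 2 differs from the other 2 sequences.
mt-Co2: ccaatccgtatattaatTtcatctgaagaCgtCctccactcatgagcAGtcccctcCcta
Gm28661: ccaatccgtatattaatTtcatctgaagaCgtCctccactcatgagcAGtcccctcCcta
Gm13341: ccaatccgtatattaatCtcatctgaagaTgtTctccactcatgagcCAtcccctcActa
Gm28661 on chromosome 1 was identical to mt-Co2 over this stretch and had 21896 reads in the table, next to 30768 for mt-Co2 itself. Gm13341, with 6 differences in the stretch, had 105 reads. The stretch was chosen for holding the most differences, and over the whole mRNA Gm13341 was 95.9% identical to mt-Co2.

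Of the 95 tested subunit genes, 3 rose in Mut at an adjusted p under 0.05, mt-Nd5, mt-Cytb and Cox6a2, and 1 fell, Cox6b2. Over all tested genes, 4.57% were called higher and 5.31% lower, so both shares among the subunits (3 of 95 and 1 of 95) were below the background. At an unadjusted p under 0.05, 9 subunits were higher and 5 lower, against 14.4% and 13.2% of all tested genes. The groups did not overlap for 1 subunit, Cox6a2, for which every Mut library was above every WT library; this was so for 2.18% of all tested genes. None had every Mut library below every WT library, against 2.39% of all tested genes.

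The mitochondrially encoded and the nuclear subunits lay on different sides of 0. Of the 13 mitochondrial genes, 11 had a log2 fold change above 0, with a median of 0.30, while 65 of the 82 tested nuclear genes had one below 0, with a median of -0.09. The median over all tested genes was 0.01, and 48.5% of them were below 0. Under 4 other scalings, 10 or 11 mitochondrial genes were above 0 and 65 to 70 nuclear genes below it. The nuclear count depended most on 1 library. Without WT replicate 4, 38 of 82 nuclear genes were below 0 and their median was 0.00. In that fit 11 mitochondrial genes were still above 0, and the mitochondrial median was 0.33. The nuclear count also fell to 53 without Mut replicate 4 and to 56 without Mut replicate 5. It was 61 to 67 without any other library. With the heart muscle marker level of each library as a covariate, 74 of 82 nuclear genes were below 0 (median -0.25), and 9 mitochondrial genes were above it (median 0.22).

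**Figure D1:**
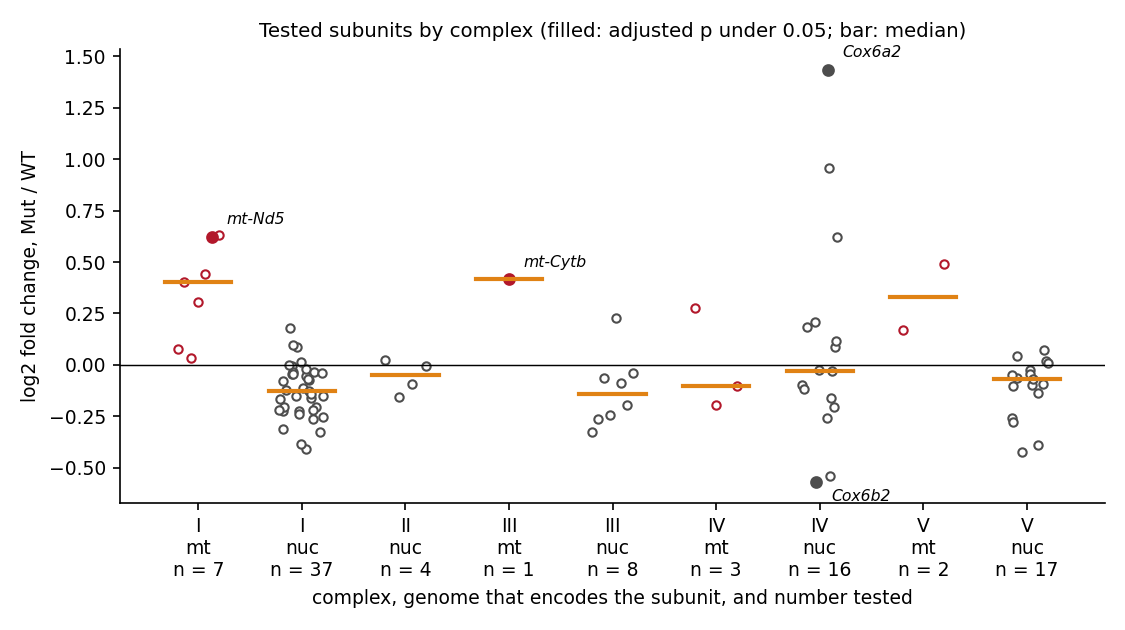
Log2 fold change of Mut over WT for each of the 95 tested subunits (vertical axis), by complex and by the genome that encodes the subunit (horizontal axis; mt, mitochondrial DNA; nuc, nuclear). Filled circles are the 4 genes with an adjusted p under 0.05, open circles the others, and bars are medians. In complexes I, III and V the mitochondrial median (0.40, 0.42 and 0.33) lies above the nuclear one (-0.13, -0.14 and -0.07). In complex IV it is -0.10 against -0.03. In complexes IV and V, mt-Co2, mt-Co3 and mt-Atp6 have near-identical nuclear copies, and mt-Atp8 had 178 reads in all.

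By complex, the mitochondrial median was above the nuclear one in complexes I, III and V and below it in complex IV. In complex I, all 7 mitochondrial genes had log2 fold changes above 0 (median 0.40) and 33 of 37 nuclear genes were below 0 (median -0.13), none of these 37 called. In complex III, mt-Cytb was at 0.42 and 7 of 8 nuclear genes were below 0 (median -0.14). In complex V, mt-Atp6 and mt-Atp8 were at 0.17 and 0.49, and 13 of 17 nuclear genes were below 0 (median -0.07). Complex IV had 1 of 3 mitochondrial genes above 0 (median -0.10) and 9 of 16 nuclear genes below it (median -0.03). Its summed level, most of which is mt-Co1, was 8108 ± 1628 CPM in Mut and 6756 ± 367 CPM in WT for the mitochondrial genes, and 1031 ± 181 CPM in Mut and 1075 ± 195 CPM in WT for the nuclear genes (SD, n = 6 each). The 4 genes of complex II, Sdha to Sdhd, ran between -0.15 and 0.02 with none called. No difference between these medians was tested. In complexes IV and V, mt-Co2, mt-Co3 and mt-Atp6 have near-identical nuclear copies, so their values depend on read placement. The other mitochondrial gene of complex V, mt-Atp8, had 178 reads in all.

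The summed level of the 13 mitochondrial genes was 17820, 15574, 16157, 13322, 17258 and 22459 CPM in Mut replicates 1, 2, 3, 4, 5 and 7, against 14468, 14026, 14476, 12879, 13123 and 14377 CPM in WT replicates 1, 3, 4, 5, 6 and 7. Of the 6 Mut libraries, 5 were above all WT libraries, and Mut replicate 4 lay within the WT range. The nuclear subunits summed to 5548 ± 761 CPM in Mut and 5828 ± 849 CPM in WT (SD, n = 6 each), with the lowest value in Mut replicate 4 (4586 CPM) and the highest in WT replicate 4 (7288 CPM). The groups overlapped widely.

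The mitochondrial sum divided by the nuclear sum was 3.14, 2.94, 2.47, 2.91, 3.50 and 3.58 in the Mut libraries, against 2.48, 2.58, 1.99, 2.23, 2.21 and 3.07 in the WT libraries. Mut replicates 2, 3 and 4 lay below WT replicate 7, the highest WT ratio, and Mut replicate 3 lay below WT replicates 1 and 3 as well. Of the ribosomal RNAs of the mitochondrion, which stand at the start of the same heavy-strand transcript, mt-Rnr2 was at 1784 ± 291 CPM in Mut and 1457 ± 157 CPM in WT, and mt-Rnr1 at 541 ± 133 CPM in Mut and 518 ± 82.2 CPM in WT (SD, n = 6 each). In whole tissue, fewer cells of a type and less RNA per cell cannot be told apart for these or any of the following values.

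**Figure D2:**
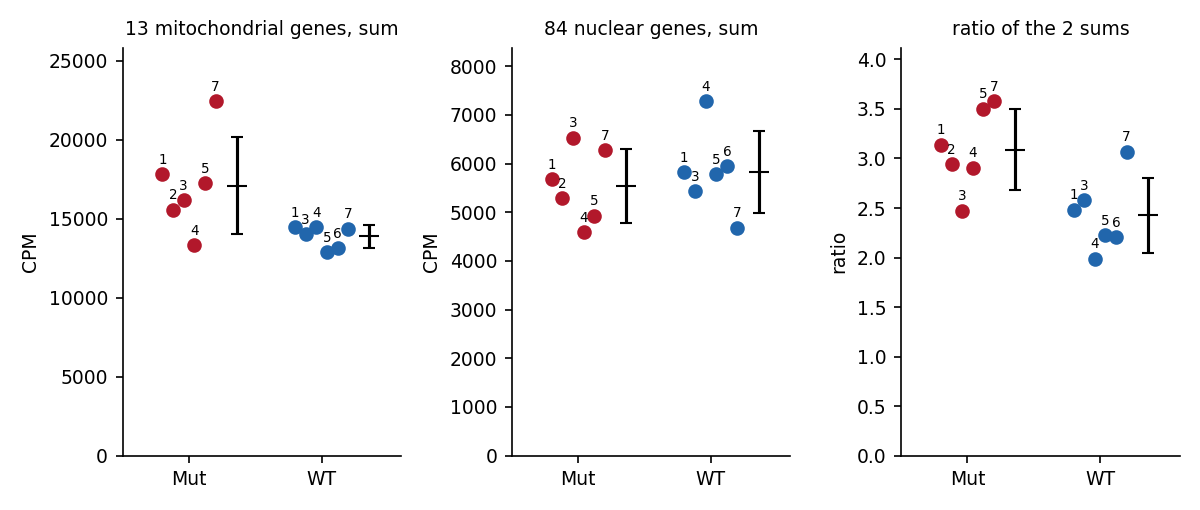
Summed CPM of the 13 mitochondrial genes (left), of the 84 nuclear genes (middle) and the ratio of these sums (right) in each Mut and WT library. Points are libraries, numbered by replicate, and bars give the mean and SD (n = 6 each). The mitochondrial sum averaged 17098 CPM in Mut and 13892 CPM in WT, and Mut replicate 4 and the 6 WT libraries lie between 12879 and 14476 CPM.

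Complex I holds 7 of the 13 mitochondrial genes. Among them mt-Nd5, which encodes a subunit of the proton-pumping membrane arm, was at 1452, 1133, 1002, 1069, 1576 and 2031 CPM in Mut replicates 1, 2, 3, 4, 5 and 7, against 937, 904, 780, 801, 815 and 1131 CPM in WT replicates 1, 3, 4, 5, 6 and 7. Of the Mut libraries, 4 were above every WT library, and Mut replicates 3 and 4 were below WT replicate 7, the highest WT value. The log2 fold change was 0.62 (SE 0.16, 95% confidence interval 0.28 to 0.97; edgeR adjusted p = 0.0262). The call was lost without Mut replicate 1 or 5 or without WT replicate 3, 4, 5 or 6, at adjusted p-values between 0.0518 and 0.0646.

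The light-strand gene mt-Nd6, whose product is another membrane-arm subunit, had the largest log2 fold change of the 13. It was at 89.4, 98.2, 80.7, 46.2, 79.4 and 121 CPM in the Mut libraries, against 48.8, 35.4, 98.9, 43.5, 34.9 and 72.0 CPM in the WT libraries. High values occurred in both groups, WT replicate 4 exceeding all Mut libraries except replicate 7. The log2 fold change was 0.63 (SE 0.27) and was not called (edgeR adjusted p = 0.150), but was without WT replicate 4 (0.87, adjusted p = 0.0436). The ends of mt-Nd6 and mt-Nd5 overlap on opposite strands, and no source used here states that reads were counted by strand.

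Another pair of membrane-arm subunits came close to the threshold. For mt-Nd2 the lowest, median and highest libraries were at 654, 941 and 1154 CPM in Mut, against 596, 699 and 883 CPM in WT (log2 fold change 0.40, SE 0.13; edgeR adjusted p = 0.0567). For mt-Nd4 they were at 1144, 1480 and 1770 CPM in Mut, against 1116, 1174 and 1279 CPM in WT (0.30, SE 0.10; adjusted p = 0.0626). In both genes 5 Mut libraries were above every WT library, and Mut replicate 4 was the exception. Without that library both were called (mt-Nd2 0.48, adjusted p = 0.0165; mt-Nd4 0.35, adjusted p = 0.0247), and mt-Nd2 also without WT replicate 4 (adjusted p = 0.0396). mt-Nd1, per length the most abundant of the 7, was at 2144 ± 379 CPM in Mut and 2035 ± 224 CPM in WT (SD, n = 6 each; 0.08, adjusted p = 0.724).

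In complex III, mt-Cytb encodes cytochrome b, the only mitochondrially encoded subunit of that complex. It was at 2938, 2657, 2813, 2212, 2831 and 3547 CPM in the Mut libraries, against 2196, 1999, 2450, 1873, 1997 and 2228 CPM in the WT libraries. All Mut libraries but replicate 4 were above every WT library. The log2 fold change was 0.42 (SE 0.11, 95% confidence interval 0.18 to 0.66; edgeR adjusted p = 0.0313). The call was lost without Mut replicate 1 or 5 or without WT replicate 3, 5 or 6, at adjusted p-values between 0.0567 and 0.0816.

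In complex IV, none of the 3 mitochondrial genes, which encode its catalytic core, was called. mt-Co1, per length the most abundant of all members, had lowest, median and highest values of 6385, 7443 and 10725 CPM in Mut, against 6035, 6537 and 6988 CPM in WT (log2 fold change 0.28, SE 0.13; edgeR adjusted p = 0.167). mt-Co2, which encodes the subunit that receives electrons from cytochrome c, was at 126, 143, 122, 97.9, 109 and 148 CPM in the Mut libraries, against 107, 129, 173, 134, 136 and 174 CPM in the WT libraries. It had the lowest log2 fold change of the 13, at -0.19 (SE 0.13; adjusted p = 0.339), and its groups overlapped. mt-Co3 was at 93.7 ± 20.5 CPM in Mut and 101 ± 19.6 CPM in WT (SD, n = 6 each; -0.10, adjusted p = 0.675).

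**Figure D3:**
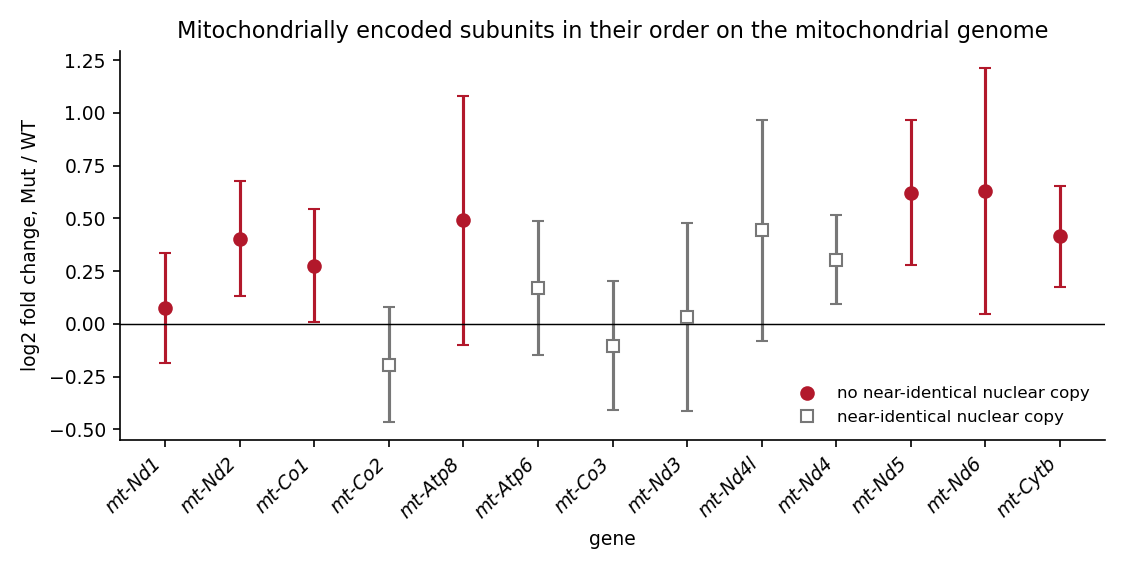
Log2 fold change of Mut over WT with its 95% confidence interval (vertical axis) for the 13 mitochondrially encoded subunits in their order along the mitochondrial genome (horizontal axis). Squares mark the 6 genes with an annotated near-identical nuclear copy and circles the 7 for which none was found. All 7 circles lie above 0, with mt-Nd5 at 0.62 and mt-Cytb at 0.42, and the squares run from -0.19 (mt-Co2) to 0.44 (mt-Nd4l).

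Levels and fold changes of the genes with and without an annotated near-identical nuclear copy overlapped. In level they did so only through mt-Nd4, which has a copy, and mt-Nd6 and mt-Atp8, for which none was found. The remaining genes with a copy ran from 34.4 FPKM (mt-Nd4l, WT) to 211 FPKM (mt-Co2, WT). The remaining genes without one ran from 500 FPKM (mt-Nd5, WT) to 4984 FPKM (mt-Co1, Mut). Per length, mt-Co1 was at 4984 FPKM in Mut and 4294 FPKM in WT, but mt-Co2 at 177 FPKM in Mut and 211 FPKM in WT, and mt-Co3 at 117 FPKM in Mut and 130.5 FPKM in WT. mt-Nd4 was at 1041 FPKM in Mut and 880 FPKM in WT, and mt-Nd6 at 161 FPKM in Mut and 109 FPKM in WT. mt-Atp8 was at 4.26 FPKM in Mut and 3.20 FPKM in WT. The 6 with such a copy had 0 genes called and a median log2 fold change of 0.10. The 7 for which none was found had 2 called, a median of 0.42 and no value below 0, a difference that was not tested. Among these 7, mt-Atp8 lies between mt-Co2 and mt-Atp6, whose copies Gm28661 and Gm10925 are both on chromosome 1. Only annotated transcripts were searched, so whether mt-Atp8 has an unannotated copy there was not tested. The copies themselves carried reads: Gm10925 had 27163 against 21108 for mt-Atp6, Gm28437 had 22150 against 22540 for mt-Co3, and Gm10222 had 2909 against 2752 for mt-Nd4l. Gm28439 covers 63.6% of mt-Nd4 and had 10802 reads against 309924 for that gene. In 5 of the 6 pairs the log2 fold changes of copy and gene had the same sign: -0.22 for Gm28661 and -0.19 for mt-Co2, -0.10 for both Gm28437 and mt-Co3, 0.13 for Gm10925 and 0.17 for mt-Atp6, 0.33 for Gm28439 and 0.30 for mt-Nd4, and 0.46 for Gm10222 and 0.44 for mt-Nd4l. The sixth pair had opposite signs, with Gm28438 at -0.16 and mt-Nd3 at 0.03. Gm29216, which matches 31.3% of mt-Co1, was at -0.15 and mt-Co1 at 0.28. With the counts of each copy added to its gene, the same 2 mitochondrial genes were called, in a fit that called 9.91% of all genes. How many reads moved between genes and copies was not tested.

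The nuclear subunit with the largest change was Cox6a2, which encodes the heart and skeletal muscle form of complex IV subunit VIa (chromosome 7, minus strand, GRCm38). It was at 29.7, 19.5, 29.9, 18.0, 22.9 and 32.7 CPM in Mut replicates 1, 2, 3, 4, 5 and 7, against 10.8, 10.9, 13.7, 9.48, 7.71 and 3.86 CPM in WT replicates 1, 3, 4, 5, 6 and 7. Every Mut library was above every WT library. The log2 fold change was 1.43 (SE 0.23, 95% confidence interval 0.94 to 1.93; edgeR adjusted p = 0.00280), a 2.70-fold higher level in Mut. Its general form, Cox6a1, was at 71.9, 85.6 and 118 CPM in the lowest, median and highest Mut libraries, against 70.1, 106 and 162 CPM in WT (-0.26, SE 0.16; adjusted p = 0.319). Of the 680 exon bases of Cox6a2, 70 overlap Itgad on the other strand, and Itgad had 135 reads in all.

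The other muscle forms of complex IV had log2 fold changes above 0 but were not called. Cox8b, the muscle form of subunit VIII, was at 5.10, 1.66, 3.63, 0.918, 3.52 and 4.64 CPM in the Mut libraries, against 1.59, 1.68, 2.81, 2.12, 1.49 and 0.345 CPM in the WT libraries (log2 fold change 0.96, SE 0.40; edgeR adjusted p = 0.138). Cox7a1, the muscle form of subunit VIIa, was at 7.30, 3.59, 6.80, 2.16, 4.15 and 6.22 CPM in the Mut libraries, against 4.22, 3.16, 4.47, 3.26, 3.42 and 1.09 CPM in the WT libraries (0.62, SE 0.31; adjusted p = 0.203). In both genes Mut replicate 4 was among the lowest libraries and the groups overlapped. The general forms Cox8a and Cox7a2 were at -0.12 (adjusted p = 0.638) and -0.10 (adjusted p = 0.754).

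Markers of heart muscle were set beside these genes. All 14 were tested and had log2 fold changes above 0 (median 0.92), with none called. Of the 14, 7 were higher at an unadjusted edgeR p under 0.05, against 14.4% of all tested genes. None was at 0 on average in either group. Their summed level was 2059, 924, 1342, 331, 1442 and 974 CPM in the Mut libraries, against 825, 869, 610, 504, 548 and 196 CPM in the WT libraries. The lowest Mut library was replicate 4 and the lowest WT library replicate 7, and the groups overlapped. The heart muscle covariate was not this sum but the mean of log2(CPM + 0.5) over the 14 markers in each library. With it, in a fit that called 6.09% of all genes, Cox6a2 was still called (log2 fold change 1.08, edgeR adjusted p = 0.00619). Cox8b was then at 0.030 (adjusted p = 0.964) and Cox7a1 at -0.039 (adjusted p = 0.921). In that fit mt-Nd5 (0.60, adjusted p = 0.0827), mt-Cytb (0.33, adjusted p = 0.131) and Cox6b2 (-0.57, adjusted p = 0.0713) were no longer called. The 6 tested fat markers were also above 0 (median 1.74), with 2 called higher, against 4.57% of all tested genes. With the untested Lep and Ucp1, the fat markers summed to 17.4 to 121 CPM in Mut and 6.16 to 33.6 CPM in WT. Their part in the result was not tested.

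**Figure D4:**
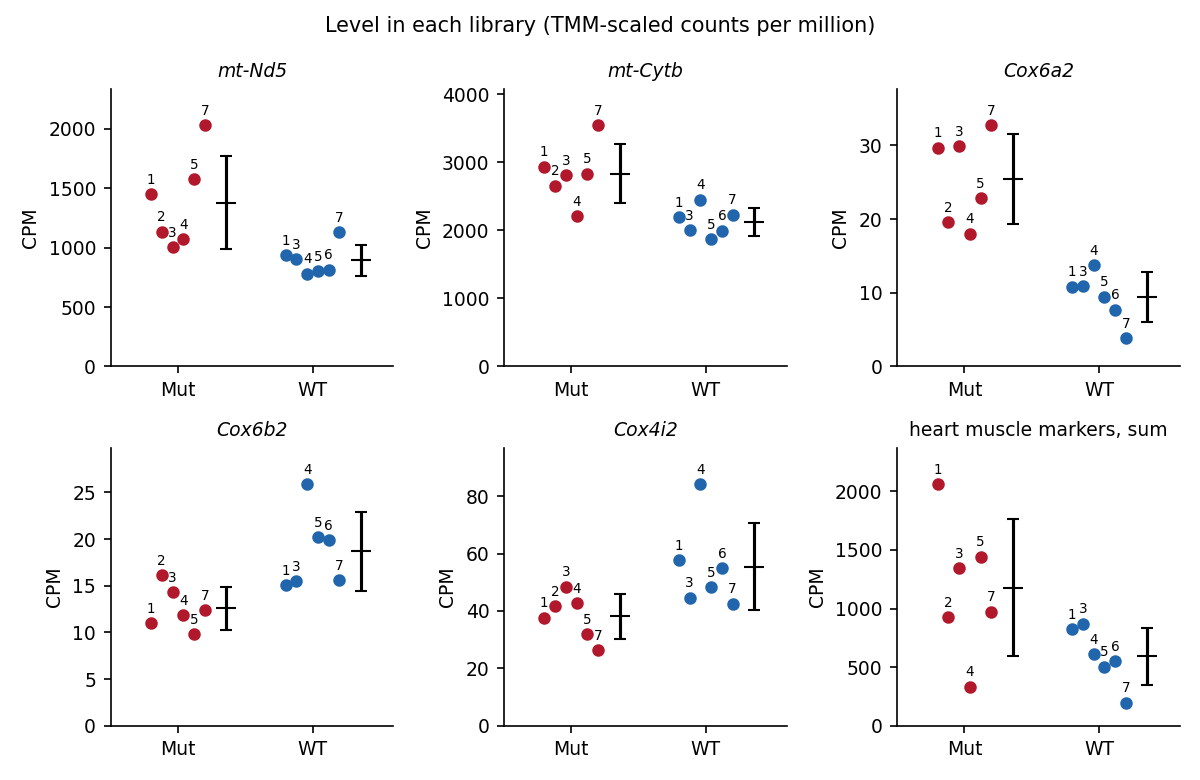
Level in CPM (vertical axes, starting at 0) of the 4 called subunits, of Cox4i2 and of the summed heart muscle markers in each Mut and WT library. Points are libraries, numbered by replicate, and bars give the mean and SD (n = 6 each). Cox6a2 is the gene whose groups do not overlap, at 18.0 CPM or more in Mut and 13.7 CPM or less in WT, and the heart muscle sums overlap, at 331 to 2059 CPM in Mut and 196 to 869 CPM in WT.

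The subunit that fell was Cox6b2, known as the testis form of complex IV subunit VIb. It was at 11.01, 16.1, 14.3, 11.8, 9.78 and 12.4 CPM in the Mut libraries, against 15.03, 15.5, 25.9, 20.2, 19.9 and 15.6 CPM in the WT libraries. Mut replicate 2 was above 3 of the WT libraries and the other 5 Mut libraries were below all of them. The log2 fold change was -0.57 (SE 0.15; edgeR adjusted p = 0.0280), and the call was lost without Mut replicate 1 or 5 or without WT replicate 4, 5 or 6, at adjusted p-values between 0.0584 and 0.0660. The general form Cox6b1 was at 64.1, 80.4 and 106 CPM in the lowest, median and highest Mut libraries, against 69.1, 97.1 and 129.6 CPM in WT (-0.21, SE 0.15; adjusted p = 0.377).

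Nuclear respiratory factors bind many promoters of subunit genes, and the promoters of the VIb pair are shown because 1 of the pair was called and the other was not. The sequences are the 250 bases before the start of each gene on chromosome 7, minus strand, from RefSeq (GRCm38.p6). Capitals mark the motif CCGGAAG of GABPA, a nuclear respiratory factor, here on the opposite strand.
Cox6b2: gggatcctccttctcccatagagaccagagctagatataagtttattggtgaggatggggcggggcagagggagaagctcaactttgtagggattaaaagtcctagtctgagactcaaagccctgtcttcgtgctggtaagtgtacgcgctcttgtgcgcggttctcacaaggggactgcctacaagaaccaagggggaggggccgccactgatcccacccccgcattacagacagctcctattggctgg
Cox6b1: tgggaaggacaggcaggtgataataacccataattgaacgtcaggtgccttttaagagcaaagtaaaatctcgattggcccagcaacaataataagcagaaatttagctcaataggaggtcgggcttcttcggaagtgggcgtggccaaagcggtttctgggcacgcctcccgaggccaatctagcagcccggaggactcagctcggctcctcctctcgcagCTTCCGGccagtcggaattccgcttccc
The Cox6b1 window holds 1 GABPA match, and the Cox6b2 window holds none of the 7 motifs searched on both strands. Of the 84 nuclear members, 66 had a promoter in the table, and Cox6a2 was not among these. GABPA (CCGGAAG) was found in 11 of the 66 (16.7%), against 7.05% of 27025 promoters of the same length, and NRF1 (GCGCATGCG) in 6 of 66 (9.1%), against 1.49%. The ERR motif AAGGTCA was in 5 of 66 (7.6%), against 4.05%, and the E-box CAGCTG in 6 of 66 (9.1%), against 12.8%. TATAAA was in 6 of 66 (9.1%), against 3504 of the 27025, and YY1 (AAGATGG) and MEF2 (TAAAAATA) were in none, against 4.53% and 2.48%. None of the 7 motifs contains another. Whether any motif goes with a fold change, in the VIb pair or among the 66, was not tested.

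Cox4i2, the lung form of complex IV subunit IV, was at 37.6, 41.5, 48.4, 42.7, 31.9 and 26.3 CPM in the Mut libraries, against 57.7, 44.6, 84.1, 48.4, 55.0 and 42.6 CPM in the WT libraries. Of the Mut libraries, 4 were below every WT library, and the highest value of all was WT replicate 4. The log2 fold change was -0.54 (SE 0.17, 95% confidence interval -0.90 to -0.18), just outside the threshold (edgeR adjusted p = 0.0530); it was called without Mut replicate 3 or 4 or WT replicate 7, at adjusted p-values between 0.0329 and 0.0491. The 8 pericyte and smooth muscle markers had a median log2 fold change of 0.13 with none called, but they differed in direction. Cspg4, Pdgfrb, Higd1b and Notch3 were at 0.006, -0.23, -0.10 and 0.08, and Acta2, Myh11, Tagln and Cnn1 at 0.29, 0.61, 0.19 and 0.72. The 8 markers summed to 412 to 1265 CPM in Mut and 782 to 882 CPM in WT. Mut replicate 7 was the lowest library both in this sum and in Cox4i2. Whether these cells have a part in the Cox4i2 value was not tested. The general form Cox4i1 was at 139, 166 and 206 CPM in the lowest, median and highest Mut libraries, against 146, 187 and 251 CPM in WT (-0.16, adjusted p = 0.439).

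Ndufa4 carries a complex I symbol but its product is assigned to complex IV. Its paralogue Ndufa4l2 was at 9.27, 24.4 and 27.3 CPM in the lowest, median and highest Mut libraries, against 23.0, 26.2 and 28.7 CPM in WT (log2 fold change -0.26, SE 0.19; edgeR adjusted p = 0.386). The lowest value was that of Mut replicate 7. Ndufa4 was at 56.6, 78.1 and 116 CPM in Mut, against 70.8, 88.2 and 124 CPM in WT (-0.12, adjusted p = 0.653). Both genes are counted with complex I here, by their symbols.

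Of the nuclear complex I genes, the largest log2 fold changes in size were those of Ndufa12 (-0.41, adjusted p = 0.240) and Ndufa3 (-0.38, adjusted p = 0.173), accessory subunits, and none passed the test. Ndufa10, an accessory subunit of the membrane arm, was highest at 0.18 (SE 0.08; adjusted p = 0.183), with 4 Mut libraries above every WT library. In complex III, the core proteins Uqcrc1 and Uqcrc2 differed in direction. Uqcrc1 was at 81.4, 96.6 and 122 CPM in the lowest, median and highest Mut libraries, against 99.8, 118 and 142 CPM in WT (-0.25, SE 0.10; adjusted p = 0.132). Uqcrc2 was at 96.6, 115 and 129.7 CPM in Mut, against 89.4, 99.3 and 103 CPM in WT (0.23, SE 0.08; adjusted p = 0.0780). Neither was called, and in Uqcrc2 5 Mut libraries were above every WT library.

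In complex V, the 3 genes Atp5g1, Atp5g2 and Atp5g3 encode the same mature ring protein, subunit c. Atp5g3 was at 78.0, 98.9 and 134 CPM in the lowest, median and highest Mut libraries, against 96.6, 129 and 199 CPM in WT (log2 fold change -0.39, SE 0.17; edgeR adjusted p = 0.150). Atp5g2 was at 42.1, 45.9 and 64.0 CPM in Mut, against 41.0, 59.9 and 82.2 CPM in WT (-0.26, adjusted p = 0.270). Atp5g1 was at 19.3, 23.3 and 31.6 CPM in Mut, against 17.4, 26.6 and 35.0 CPM in WT (-0.10, adjusted p = 0.708). Per length their levels ran Atp5g3, Atp5g2, Atp5g1, at 45.6, 29.0 and 4.90 FPKM in Mut and 62.2, 36.2 and 5.49 FPKM in WT. Of the catalytic head, Atp5b (beta subunit) was at 0.07 and Atp5a1 (alpha subunit) at -0.07, with neither called.

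The nuclear subunits are short genes, and short genes as a class had log2 fold changes below 0; lengths are those implied by the deposited counts and FPKM. Over 500 and up to 1000 bases, the median log2 fold change was -0.12 over 1166 genes and -0.18 over 20 nuclear subunits. Over 1000 and up to 2000 bases it was -0.09 over 2754 genes and -0.12 over 31 subunits, and over 2000 and up to 3000 bases -0.04 over 3036 genes and -0.06 over 12 subunits. Over 3000 and up to 5000 bases it was 0.01 over 4868 genes and -0.05 over 14 subunits, and over 5000 bases 0.08 over 6522 genes and -0.0048 over 3 subunits. Up to 500 bases it was -0.21 over 658 genes and 0.44 over 2 subunits. With the length trend removed, 48 of 82 nuclear subunits were below 0, with a median of -0.03, and the mitochondrial median was 0.39.

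**Figure D5:**
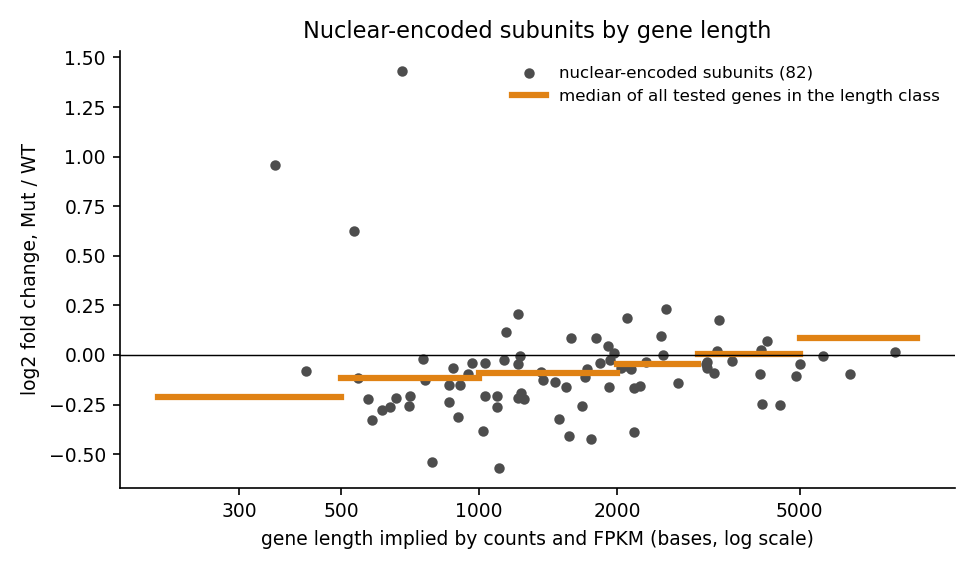
Log2 fold change of Mut over WT (vertical axis) of the 82 tested nuclear subunits against gene length in bases, as implied by counts and FPKM (horizontal axis, log scale). Bars show the median of all tested genes in 6 length classes, drawn across each class. The medians of all genes run from -0.21 in the shortest class to 0.08 in the longest, and most subunits lie in the 4 shorter classes.

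Genes that build the complexes or control their number were followed as 6 lists, whose counts stand beside 4.57% of all tested genes called higher and 5.31% called lower. Of 16 complex I assembly factors, 1 rose and none fell (median log2 fold change -0.01): Ndufaf4 was at 31.4 ± 3.22 CPM in Mut and 23.6 ± 4.18 CPM in WT (SD, n = 6 each; 0.41, edgeR adjusted p = 0.0350). Of 28 tested assembly factors of complexes II to V, none was called (median -0.02; 4 at an unadjusted p under 0.05), with Sdhaf1 at -0.61 (adjusted p = 0.120), Pet100 at -0.52 (adjusted p = 0.115), Cox15 at 0.21 (adjusted p = 0.129) and Coa7 at 0.18 (adjusted p = 0.180).

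Of 12 tested subunits and electron carriers outside the symbol patterns, 2 rose and none fell (median 0.08). Ndufab1, the mitochondrial acyl carrier protein and a subunit of complex I, was at 39.8, 42.1, 44.5, 35.8, 35.0 and 39.9 CPM in the Mut libraries, against 34.4, 31.6, 29.9, 32.8, 28.2 and 31.2 CPM in the WT libraries. The groups did not overlap (log2 fold change 0.33, edgeR adjusted p = 0.0181). Etfdh, which passes electrons from fatty acid oxidation to ubiquinone, was at 52.7 ± 5.18 CPM in Mut and 39.7 ± 6.12 CPM in WT (SD, n = 6 each; 0.41, adjusted p = 0.0257), and its groups did not overlap either. Every Mut library was above every WT library for 2.18% of all tested genes.

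Of 11 regulators of mitochondrial biogenesis, 2 rose and none fell (median log2 fold change -0.07). The coactivator gene Ppargc1a was at 10.8, 6.75, 7.84, 6.32, 9.62 and 12.5 CPM in the Mut libraries, against 6.75, 5.55, 4.76, 5.53, 5.78 and 6.04 CPM in the WT libraries. Mut replicates 2 and 4 were not above WT replicate 1, and the other Mut libraries were above all of WT (0.65, edgeR adjusted p = 0.0249). Ppara, a receptor that activates fatty acid oxidation genes, was at 2.75 ± 1.23 CPM in Mut and 1.42 ± 0.237 CPM in WT (SD, n = 6 each; 0.95, adjusted p = 0.0359). Tfam, which packages mitochondrial DNA and starts its transcription, was at -0.18 (adjusted p = 0.169).

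Of 21 genes of mitochondrial transcription and DNA upkeep, none was called (median log2 fold change 0.12; 7 at an unadjusted p under 0.05); Top1mt, the mitochondrial topoisomerase, came closest at 0.44 (edgeR adjusted p = 0.0508). Of 14 genes of the tricarboxylic acid cycle, 3 rose and none fell (median 0.10), again beside 4.57% higher and 5.31% lower over all tested genes. Idh3b and Idh3a, subunits of the NAD-dependent isocitrate dehydrogenase, were among them, at 0.28 (adjusted p = 0.0245) and 0.37 (adjusted p = 0.0356). With the heart muscle level as a covariate, none of the 8 genes called in the 6 lists was called, at adjusted p-values between 0.0697 and 0.170. Leaving out Mut replicate 1 or Mut replicate 5 also ended the call of each of these genes except Ndufab1, at adjusted p-values between 0.0523 and 0.0852.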

How the data were processed

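Each of the 12 lung libraries was made from RNA enriched with oligo(dT), per the labels' protocols. The authors deposited a table of read counts per gene and a table of FPKM; per the submitters' processing notes, mm10 and limma were used, without stated roles. The aligner, counter, strand setting and annotation are not given in the sources used here. Symbols were taken from GENCODE M21 by gene identifier; 4727 of 59136 entries did not match and held 0.589 to 0.872% of counts. Counts were filtered (filterByExpr, minimum count 10), scaled by TMM and fitted with edgeR 4.0.16 (R 4.3.3) on genotype, with Benjamini-Hochberg adjustment over 19004 genes and a threshold of 0.05; the biological coefficient of variation was 17.4%. The script was tested on simulated data. Any subunit could be named; each library's value was kept for called subunits, the mitochondrial genes with the largest and smallest change and isoform pairs, and up to 4 genes of each list with the smallest p were named. The members and lists were chosen with earlier results of these data known. Nuclear copies were sought among GENCODE M21 transcripts with blastn 2.17.0 (at least 95% identity over 100 bases), so unannotated copies were not searched. Alternatives used DESeq2 1.42.0 and limma 3.58.1. Gene length was taken from the ratio of count to FPKM. The values of 1 gene of the tricarboxylic acid cycle are not reported here.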

Additional observations from a re-analysis of the deposited data

Results flagged for a closer look

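Over 54 sets of 6 libraries from named members and sums, 1 value stood far from the others of its group: Cox4i2 was at 84.1 CPM in WT replicate 4, and the next highest WT library was at 57.7 CPM. This gap was 0.637 of the range of the WT group, above the 95% critical value of Dixon's test for 6 samples; chance gives such a gap in about 1 in 20 sets. The same library had the highest sum of nuclear subunits (7288 CPM). Without it, the log2 fold change of Cox4i2 was -0.38 (edgeR adjusted p = 0.112).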

How the results depend on the processing

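In 27 alternatives, Cox6a2 was called in 26, Cox6b2 in 20, mt-Nd5 and mt-Cytb in 16 each and Cox4i2 in 11. Nuclear subunits called lower numbered 2 under RLE, upper-quartile and library-total scaling, TMM on nuclear genes alone, DESeq2, limma on log2(FPKM + 1) or log2(FPKM + 0.1) and a threshold of 0.10, because Cox4i2 joined, and 0 with the heart muscle covariate. Nuclear subunits called higher numbered 2 at 0.10 and with the length trend removed (Uqcrc2 joined). Mitochondrial subunits called higher numbered 1 under upper-quartile and library-total scaling, 4 with DESeq2, at 0.10 and with the length trend removed, and 0 in both FPKM fits and with the heart muscle covariate. The cause was not tested. Leaving out 1 library gave 1 to 2 nuclear subunits higher, 0 to 2 lower, and 0 to 4 mitochondrial subunits higher and 0 lower; the mitochondrial count was 0 without Mut replicate 1 or 5 or WT replicate 3, 5 or 6. The nuclear median ran from -0.16 to 0.0047 and the mitochondrial one from 0.24 to 0.35. Leaving out 1 library, Cox7a2 ran from -0.25 to 0.023 and Cox8a from -0.19 to 0.0037, both positive without WT replicate 4, and they were at 0.019 and 0.039 with the length trend removed. With the heart muscle covariate, Cox7a1 was at -0.039 and mt-Nd1 at -0.070; none of these was called. The length, heart muscle and nuclear copy alternatives were chosen after seeing the data.

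Over all genes, calls split into 869 higher and 1010 lower, against 518 and 1513 under library totals, 648 and 1242 under upper-quartile scaling, 639 and 1029 without the count filter, and 404 and 1508 on log2(FPKM + 1). Replicate numbers shared by the groups gave no sign of pairing the samples. Correlations of same-numbered libraries ran from -0.15 to 0.10 over 5 numbers, and 2 of 10 libraries were closest to their own number. These values cannot show that the samples were not paired. With the replicate block, 0 nuclear subunits were higher, 0 lower and 0 mitochondrial higher, among 107 calls over all genes; Cox6a2 was at 1.49 (adjusted p = 0.0664). Of the 8 genes called in the neighbouring lists, each was called in 14 to 21 of the 27 alternatives, the 0.10 threshold included. Mitochondrial genes with nuclear copies are limited by read placement, and Cox8b (580 reads) by depth. mt-Atp8 is limited by its low count (178 reads), and 43 of its 204 bases are shared with mt-Atp6. Whether read placement lowered that count was not tested.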
